A study of Mus musculus with 7 samples.

Results

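The matrilins, cartilage oligomeric matrix protein (COMP) and the thrombospondins were examined in the growth plate as 9 genes, Matn1, Matn2, Matn3, Matn4, Comp, Thbs1, Thbs2, Thbs3 and Thbs4. They were taken by symbol from the 43346 genes in the deposited counts, and all 9 were found and passed the filter for testing. Growth plates, the cartilage at which a long bone lengthens, came from the proximal and distal tibiae of 7 male C57BL/6J (B6) by CAST/EiJ (CAST) F1 mice killed at 21 d of age, with 1 library of rRNA-depleted total RNA per mouse. There was 1 genotype and no treatment, so the comparison available within each mouse was that of its CAST copy of a gene with its B6 copy. Mice carry the numbers of their labels, 1, 2, 3, 4, 5, 7 and 8.

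Matrilins are secreted adaptor proteins built from von Willebrand factor A and EGF-like modules. They form oligomers through a coiled coil and tie collagen fibrils to proteoglycans in cartilage. Thrombospondins are calcium-binding matrix proteins that assemble as trimers (Thbs1 and Thbs2) or as pentamers (Thbs3, Thbs4 and COMP). COMP and matrilin 3 are abundant in growth plate cartilage, and mutations in either are known causes of skeletal dysplasia in which misfolded protein is retained in the endoplasmic reticulum of chondrocytes.

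Promoter sequence was found for 6 of the 9 genes in a RefSeq table (GRCm38.p6), and 4 of these are shown because their allele ratios lie at the ends of the range described below. Each line gives the 100 bases before the annotated start, 5′ to 3′ on the strand of the gene, in the reference sequence, which is that of B6. They lie at chr4:130944285-130944384 on the plus strand for Matn1, chr17:14694263-14694362 on the minus strand for Thbs2, chr3:89215080-89215179 on the plus strand for Thbs3 and chr13:92794819-92794918 on the minus strand for Thbs4. Capitals mark a GC box (GGGCGG) or a CCAAT box (CCAAT) on either strand.
Matn1: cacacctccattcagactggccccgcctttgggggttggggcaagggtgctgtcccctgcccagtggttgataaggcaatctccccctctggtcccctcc
Thbs2: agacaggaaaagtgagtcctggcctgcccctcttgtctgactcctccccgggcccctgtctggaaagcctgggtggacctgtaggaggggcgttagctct
Thbs3: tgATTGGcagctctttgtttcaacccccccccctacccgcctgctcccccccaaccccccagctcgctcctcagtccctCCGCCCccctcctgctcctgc
Thbs4: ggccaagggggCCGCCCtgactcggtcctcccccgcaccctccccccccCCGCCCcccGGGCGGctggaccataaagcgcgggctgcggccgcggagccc
Over the 250 bases before the start, searched on both strands, Thbs4 had 3 GC boxes, Matn1 and Thbs3 had 1 each and Thbs2 had none. The CCAAT box was found 2 times in Thbs2 and 1 time in Thbs3, and the TATA box (TATAAA) was found in Thbs2. A SOX core (ACAAT) was found in none of these 4 windows, which says only that these letters are not there. Of 32851 promoters of this length, 32.7% held the GC box, 33.9% the CCAAT box, 12.4% the TATA box and 27.7% the SOX core. Differences between the strains in these stretches were not analysed here.

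Between 14098019 and 37849667 counts were assigned to genes in each mouse, and the 9 genes held 0.495% to 0.669% of them. The labels name chondrocytes, and chondrocyte markers (Col2a1 and 7 others) had the highest summed level of 10 marker lists in 6 of the 7 mice (in mouse 1 osteoblast markers were higher, 59234 against 54662), 51618 to 96619 counts per 1000000 counts (CPM) across the mice after scaling by edgeR's TMM factors. Other cells were also present. Osteoblast markers summed to 34926 to 67749 CPM, mostly Col1a1 (means of 637423 CAST and 623595 B6 counts, against 23649 and 19017 for Bglap). Most of the chondrocyte sum was Col2a1 (688572 and 721474, against 112760 and 99287 for Acan). Erythroid markers summed to 8129 to 19480, skeletal muscle markers to 4311 to 9157 and neutrophil markers to 1213 to 2423 CPM. Tendon markers summed to 1133 to 1664, but to only 111 to 234 without Fmod, which cartilage also makes, and markers of megakaryocytes and platelets, which store Thbs1 protein, to 93.3 to 184 CPM. Every marker was above 0 in every mouse. In whole tissue, fewer cells of a type and less RNA per cell cannot be told apart.

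Comp was the most abundant of the 9 genes per kb of exons in every mouse. Levels are given as TMM-scaled CPM per kb of the gene's merged exons. Comp, on chromosome 8 at 70373558 to 70382066 (GRCm38/mm10, as are all positions here), encodes the pentameric protein that binds collagens and aids their assembly, and its level was 709 in the lowest mouse, 958 in the median and 1358 in the highest. Its mean of 944 ± 207 (SD, n = 7 mice) was 56.3% ± 2.47 of the sum over the 9 genes. The gap to the next gene was larger than the spread between mice, with Comp 5.09-fold above Matn3 (exact two-sided permutation test by sign flips within mice, adjusted p = 0.0181 over 36 pairs, same direction in 7 of 7 mice).

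Matn3, Thbs1 and Matn1 followed, and Thbs1 could not be separated from either of the other two. Matn3 (chromosome 12, 8947929 to 8972028), the matrilin of epiphyseal cartilage, ran from 110 over a median of 196 to 233, with a mean of 187 ± 46.0 (SD, n = 7). Thbs1 (chromosome 2, 118111876 to 118127133), a trimer that activates latent TGF-β and inhibits angiogenesis, ran from 135 over 160 to 186 and averaged 158 ± 17.8 (SD, n = 7). Matn1 (chromosome 4, 130944385 to 130955475), cartilage matrix protein, ran from 102 over 130 to 212 and averaged 147 ± 38.4 (SD, n = 7). The difference within mice was 0.21 ± 0.26 on the log2 scale between Matn3 and Thbs1 (SD, n = 7, exact permutation test by sign flips, adjusted p = 0.0852) and 0.14 ± 0.26 between Thbs1 and Matn1 (SD, n = 7, exact permutation test by sign flips, adjusted p = 0.199). Matn3 was above Matn1 by 0.35 ± 0.28 on the log2 scale (SD, n = 7, exact permutation test by sign flips, adjusted p = 0.0181).

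The other thrombospondins were lower. Thbs4 (chromosome 13, 92751590 to 92794818), a pentamer known from tendon and muscle, ran from 59.6 over 88.7 to 112 and averaged 85.8 ± 20.3 (SD, n = 7). Thbs2 (chromosome 17, 14665500 to 14694235), the trimer that limits angiogenesis and shapes collagen fibrils, ran from 46.0 over 57.6 to 90.0 and averaged 63.6 ± 16.0 (SD, n = 7). Thbs3 (chromosome 3, 89215180 to 89226837), a pentamer of developing skeleton, ran from 46.3 over 58.2 to 82.7 and averaged 60.9 ± 11.4 (SD, n = 7). Thbs4 was above Thbs2 in 7 of 7 mice (1.35-fold, exact permutation test by sign flips, adjusted p = 0.0181), but with the longest transcript in place of the merged exons this held in 5 of 7 mice, the ratio was 1.17-fold and the adjusted p was 0.136. Thbs2 and Thbs3 were not separated (difference of 0.05 ± 0.44 on the log2 scale, SD, n = 7, exact permutation test by sign flips, adjusted p = 0.75).

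Matn4 and Matn2, the matrilins of wider tissue distribution, had the lowest levels. Matn4 (chromosome 2, 164389393 to 164405160) ran from 8.71 over 10.1 to 15.1 and averaged 11.1 ± 2.39 (SD, n = 7), while Matn2 (chromosome 15, 34306677 to 34436273) ran from 9.18 over 10.8 to 12.4 and averaged 10.5 ± 1.15 (SD, n = 7). With merged exons they were not separated (difference of 0.05 ± 0.16 on the log2 scale, exact permutation test by sign flips over n = 7 mice, adjusted p = 0.45). Over the longest transcript Matn2 averaged 18.5 and Matn4 13.9, so their order turned with the length used. Thbs3 was 5.52-fold above Matn4 (exact permutation test by sign flips, adjusted p = 0.0181, 7 of 7 mice), which sets both genes apart from the other 7. In all, 32 of the 36 pairs differed at an adjusted p under 0.05, and the 4 that did not were the neighbours in rank named above.

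**Figure D1:**
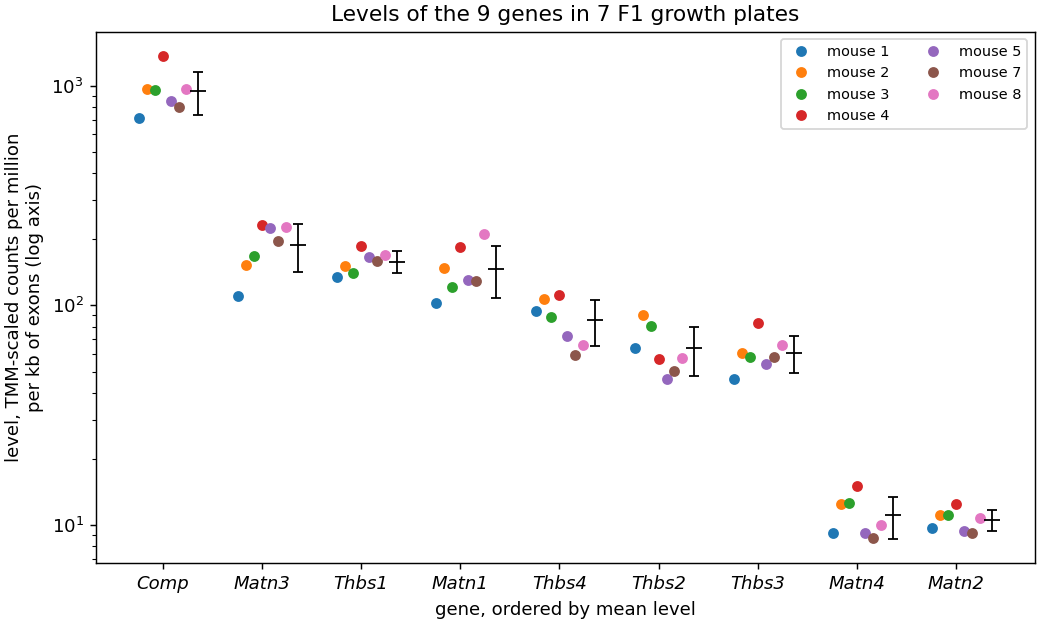
Level of each gene in TMM-scaled CPM per kb of merged exons, on a log axis, with 1 point per mouse (7 mice, coloured by mouse number) and the mean ± SD as a black mark to the right. Comp sits between 709 and 1358 in every mouse, and Matn4 and Matn2 stay at or below 15.1.

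The comparison of alleles asks whether the CAST and B6 copies of a gene contributed unequal numbers of reads within the same tissue. Of the 9 genes, 6 had more CAST counts in all 7 mice, 1 had more B6 counts in all 7, and 2 were split. Over all tested genes, 10.6% had more CAST counts and 14% (2834 of 20239) more B6 counts in all 7 mice. For this measure the share among genes as deep as the 9 was not computed. By edgeR's likelihood-ratio test of the 7 CAST against the 7 B6 columns, 5 of the 9 genes passed an FDR of 0.20, all with CAST higher, where 34.5% of 20239 tested genes passed in either direction and 16.0% passed with CAST higher. Among the 3392 genes with a mean of at least 1000 counts, as all 9 have, 30.3% passed. The shares of tested genes here and below include X-linked genes, which give no comparison of alleles in males, while all 9 genes are autosomal. With autosomal genes only, 32.2% of 19295 passed, 3008 genes with CAST higher and 3197 with B6 higher. In that fit 4 of the 9 genes passed, all with CAST higher. The median log2 fold change of the 9 genes was 0.25, against 0.01 over all tested genes, and the median size of the change, regardless of direction, was 0.25 against 0.22 over all tested genes and 0.11 over genes of at least 1000 counts.

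Matn1 had the largest allele difference. The CAST share of its counts was 57.4% in the lowest mouse, 58.0% in the median and 60.8% in the highest, from 3780 to 10292 counts per mouse. All mice stood apart from an equal split, and even the lowest ratio of Matn1 was above the highest ratio of every other gene except Thbs4. CAST counts averaged 4433 ± 1325 and B6 counts 3128 ± 889 (SD, n = 7), and the edgeR log2 fold change was 0.51 (FDR 0.0149, likelihood-ratio test). Within mice the CAST copy gave 1.41-fold the counts of the B6 copy (mean log2 ratio 0.50 ± 0.08, SD, n = 7, exact permutation test by sign flips, p = 0.0156, below which a test of 7 mice cannot go). In this fit Matn1 was the only one of the 9 that also passed an FDR of 0.05. Others passed it in other fits, such as Thbs1 in DESeq2 (FDR 0.0309), and in the fit paired by mouse described below.

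Matn2, which is made by many connective tissues, also leaned to CAST but varied more between mice. Its CAST share was 50.2% in mouse 2, 54.1% in the median mouse and 56.5% in mouse 7, from 838 to 2331 counts per mouse. Mouse 2 was thus close to an equal split while the other mice lay at 52.3% or above. The log2 fold change was 0.25 (FDR 0.0603, edgeR), and the mean log2 ratio within mice was 0.24 ± 0.13 (SD, n = 7, exact permutation test by sign flips, p = 0.0156). With each ratio divided by that of the mouse's autosomal totals, mouse 2 fell just below 0 and the mean of 0.21 kept p = 0.0312 (exact permutation test by sign flips, n = 7).

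Matn3 and Matn4 were split between mice. For Matn3, whose product is mutated in epiphyseal dysplasia, the CAST share ran from 48.4% over 49.2% to 51.7% at 8592 to 26799 counts per mouse. For Matn4 it ran from 48.1% over 48.6% to 51.0% at 657 to 1884 counts per mouse. CAST was higher in 2 of 7 mice for each. The mean log2 ratios, -0.02 ± 0.06 for Matn3 and -0.05 ± 0.07 for Matn4 (SD, n = 7), were within the spread from mouse to mouse (exact permutation tests by sign flips, p = 0.328 and p = 0.109). The edgeR log2 fold changes were -0.02 and -0.03, both far from the threshold, with FDR 1 and 0.975.

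Both trimeric thrombospondins had more CAST counts in every mouse. The CAST share of Thbs1 ran from 52.4% in mouse 8 over a median of 54.4% to 54.8% in mouse 1, at 14140 to 39902 counts per mouse. That of Thbs2 ran from 54.4% over 55.1% to 56.1%, at 5148 to 18121 counts per mouse. Neither gene had a mouse near an equal split, and the SD of the share was under 1 percentage point for each (0.818 and 0.694). The log2 fold change of Thbs1 was 0.25 (FDR 0.0607, edgeR), with a mean ratio within mice of 1.18-fold (exact permutation test by sign flips, p = 0.0156). Thbs2 had a log2 fold change of 0.31 (FDR 0.190, edgeR) and a mean ratio within mice of 1.23-fold (exact permutation test by sign flips, p = 0.0156). Its edgeR call lay close to the threshold and was lost without mouse 1, 3, 4, 7 or 8 (FDR up to 0.271), while the log2 fold change stayed between 0.30 and 0.32. It was also lost in the quasi-likelihood test (FDR 0.216) and with one library size per mouse (FDR 0.229). None of these fits pairs the alleles of a mouse. In the paired fit described below Thbs2 was called (FDR 7.28e-06, quasi-likelihood test).

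Among the pentamers, Thbs4 and Comp leaned to CAST and Thbs3 to B6. Thbs4 had a CAST share of 54.5% to 58.0% with a median of 55.0%, at 2855 to 10354 counts per mouse. Mouse 3 was the highest, and the log2 fold change of 0.34 (FDR 0.133, edgeR) fell to 0.32 without that mouse and was no longer called (FDR 0.258). Within mice the CAST copy of Thbs4 gave 1.25-fold the counts of the B6 copy (mean log2 ratio 0.33 ± 0.07, SD, n = 7, exact permutation test by sign flips, p = 0.0156).

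Comp, the deepest of the genes at 34522 to 99572 counts per mouse, had the narrowest range, with a CAST share of 52.3% to 53.8% and a median of 52.8%. Every mouse was above an equal split, and the mean ratio within mice was 1.13-fold (mean log2 ratio 0.18 ± 0.03, SD, n = 7, exact permutation test by sign flips, p = 0.0156). The edgeR fit of the 14 columns, which sets the alleles against the spread of levels between mice, gave a log2 fold change of 0.19 that was not called (FDR 0.434). Under a model with a replicate block for each mouse, which compares the alleles within mice, Comp was called in edgeR's likelihood-ratio test (FDR 4.53e-45) and in its quasi-likelihood test (FDR 4.08e-05).

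Thbs3 was the 1 gene of the 9 with more B6 counts in all 7 mice. Its CAST share was 44.9% in mouse 2, 46.7% in the median mouse and 48.8% in mouse 8, at 4074 to 10267 counts per mouse. The B6 copy gave 1.13-fold the counts of the CAST copy (mean log2 ratio of CAST to B6 -0.17 ± 0.08, SD, n = 7, exact permutation test by sign flips, p = 0.0156). The log2 fold change of -0.15 was not called in the fit of the 14 columns (FDR 0.512, edgeR), but it was called under the replicate block (FDR 2.80e-06, edgeR likelihood-ratio test, and 0.00713, quasi-likelihood test). With that block 7 of the 9 genes were called, 6 higher on CAST and 1 on B6, where 45.3% of all tested genes were called, 21.8% higher on CAST and 23.5% on B6. Of the genes with at least 1000 counts, 61.6% were called. By the quasi-likelihood test with the block, the FDR was 1.45e-05 for Matn1, 0.00814 for Matn2, 4.39e-05 for Thbs1, 7.28e-06 for Thbs2 and 9.9e-05 for Thbs4.

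**Figure D2:**
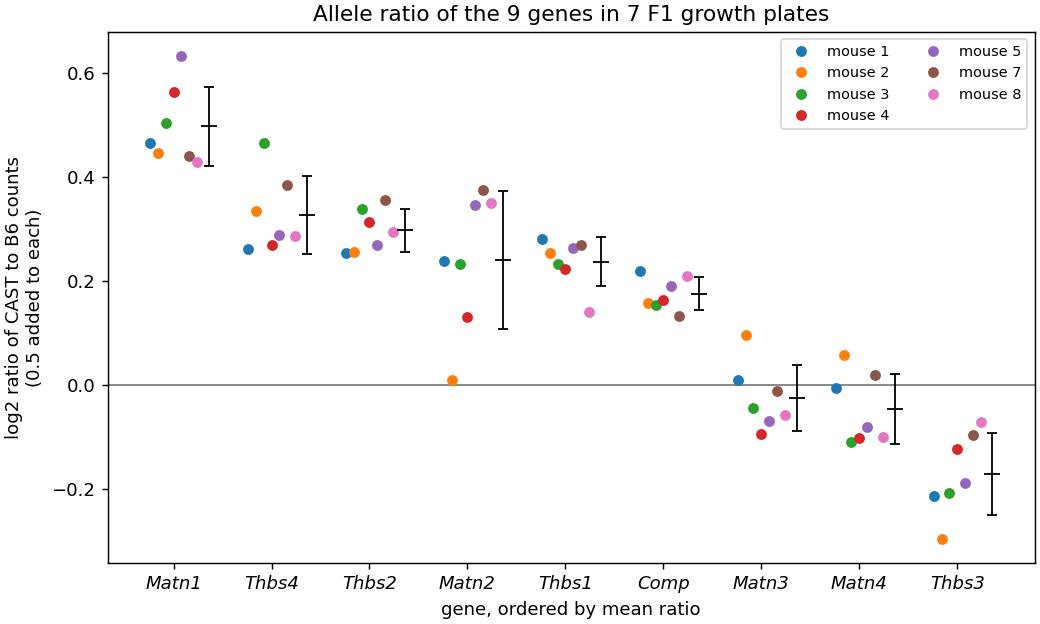
Log2 of CAST counts over B6 counts (pseudocount 0.5) with 1 point per mouse (7 mice, coloured by mouse number), the mean ± SD as a black mark to the right, and a line at an equal ratio. Points of Matn1, Thbs4, Thbs2, Matn2, Thbs1 and Comp lie above the line in all 7 mice, those of Thbs3 lie below it in all 7, and those of Matn3 and Matn4 fall on both sides.

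For several of the 9 genes, reads could be shared with another annotated gene. Totals were whole numbers in all 7 mice for Matn1, Matn2, Matn3, Thbs2, Thbs4 and Comp, in 3 mice for Thbs1, in 1 for Matn4 and in none for Thbs3, and totals that are not whole mark reads divided between genes. The exons of Thbs3 share 318 bases with Mtx1 on the opposite strand, those of Thbs1 share 208 with Gm29233, those of Matn4 share 149 with Rbpjl and those of Matn2 share 70 with 9430069I07Rik. The library kit named in the paper was stranded. Whether the counting used strand is not given in the sources used here, so reads in these stretches cannot be told apart. Mean totals were low for Gm29233 (1.46), Rbpjl (61.5) and 9430069I07Rik (0.714). Mtx1, a mitochondrial import protein, had 313 CAST and 300 B6 counts on average, a log2 fold change of 0.06 (FDR 0.829, edgeR), against 3547 CAST and 4015 B6 counts for Thbs3.

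The nearest protein-coding genes on either side did not share one direction with the 9 genes. Of the 18 neighbours 17 were tested and 8 were called, 5 higher on CAST and 3 on B6. Over all tested genes 34.5% were called, 16.0% higher on CAST and 18.5% on B6. Laptm5, a lysosomal gene of blood cells 8244 bases from Matn1, was higher on B6 (log2 fold change -0.40, FDR 0.00204, edgeR), opposite to Matn1. Muc1, 2220 bases from Thbs3, was higher on B6 at -1.33 (FDR 1.48e-07, edgeR), from a mean of only 15.5 CAST and 39.4 B6 counts. Serinc5, 39643 bases from Thbs4, was higher on B6 at -0.34 (FDR 0.0563, edgeR). Smoc2, a matricellular gene 260710 bases from Thbs2, was higher on CAST at 0.24 (FDR 0.0582, edgeR). Laptm4b, 22375 bases from Matn2, was higher on CAST at 0.40 (FDR 0.00485, edgeR). Rasgrp1 and Fsip1, 768875 and 3291 bases from Thbs1, were higher on CAST at 0.59 and 2.62 (FDR 0.00658 and 0.0192, edgeR), Fsip1 from under 2 counts per allele.

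Genes that work with the matrilins and thrombospondins were examined in 6 lists, which hold 70 genes and overlap in part. Of these 70, 17 were called between alleles in the edgeR fit of the 14 columns, 8 higher on CAST and 9 on B6, and 49 under the replicate block (22 and 27). These counts include the X-linked Bgn. With autosomal genes only, 14 of 69 were called in the fit of the 14 columns, 6 higher on CAST and 8 on B6. The share of the 70 called in the fit of the 14 columns is below the 34.5% of all tested genes. The share called under the block is above the 45.3%, or the 61.6% of genes with at least 1000 counts. Adamts4, Pdia6 and Creld2 had equal counts on both alleles in every mouse, the pattern of genes without reads that tell the alleles apart.

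In cartilage matrix, the list of collagens and proteoglycans to which matrilins and COMP bind, 3 of 18 genes were called, all higher on B6, and the median log2 fold change was -0.01. They were the small leucine-rich proteoglycans Dcn (-0.50, FDR 3.39e-04), Prelp (-0.33, FDR 0.0106) and Bgn (-4.56, FDR 1.86e-207, all edgeR). Bgn is X-linked, and a male carries a single X chromosome, so it gives no comparison of alleles. The replicate block called 16 of the 18, 7 higher on CAST and 9 on B6. Among receptors and binding partners of thrombospondins, 3 of 15 were called, all higher on CAST: Cd36, the receptor for the type I repeats of Thbs1, at 0.39 (FDR 0.0307, edgeR), Itgb3 at 0.26 (FDR 0.131) and Itga3 at 0.23 (FDR 0.192). With one library size per mouse, only Cd36 of the 3 was called, and with the block 7 of 15 were, 3 higher on CAST and 4 on B6.

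Matrix-cleaving enzymes were called in both directions, 4 of 11. Adamts7, a metalloproteinase that cleaves COMP, was higher on CAST at 0.54 (FDR 0.00110, edgeR), as was Htra1 at 0.35 (FDR 0.00538). Mmp9, the gelatinase of osteoclasts and invading vessels, was higher on B6 at -0.68 (FDR 5.42e-06, edgeR), as was Mmp3 at -0.81 (FDR 0.0875). In the list of TGF-β and its latency, the pathway that Thbs1 acts on, 3 of 9 were called. Tgfb1 was higher on B6 at -0.62 (FDR 8.97e-09, edgeR), and Ltbp4 and Tgfb3 were higher on CAST at 0.44 (FDR 0.0175) and 0.20 (FDR 0.175). Tgfb3 was not called with one library size per mouse. The block called 7 of the 11 enzymes, 3 higher on CAST and 4 on B6, and 8 of the 9 genes of the TGF-β list, 6 and 2.

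Folding factors of the endoplasmic reticulum, which handle COMP and matrilin 3 on their way out of the cell, were called in 3 of 17, all higher on B6. These were the disulfide isomerase Pdia4 at -0.33 (FDR 0.00420, edgeR), Dnajb9 at -0.36 (FDR 0.116) and the chaperone Hsp90b1 at -0.23 (FDR 0.128). Hsp90b1 was not called with one library size per mouse. The block called 11 of the 17, 2 higher on CAST and 9 on B6. Among other genes mutated in epiphyseal dysplasia and related disorders, 1 of 8 was called, the sulfate transporter Slc26a2, higher on CAST at 0.33 (FDR 0.00793, edgeR). With the block all 8 were, 3 higher on CAST and 5 on B6.

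**Figure D3:**
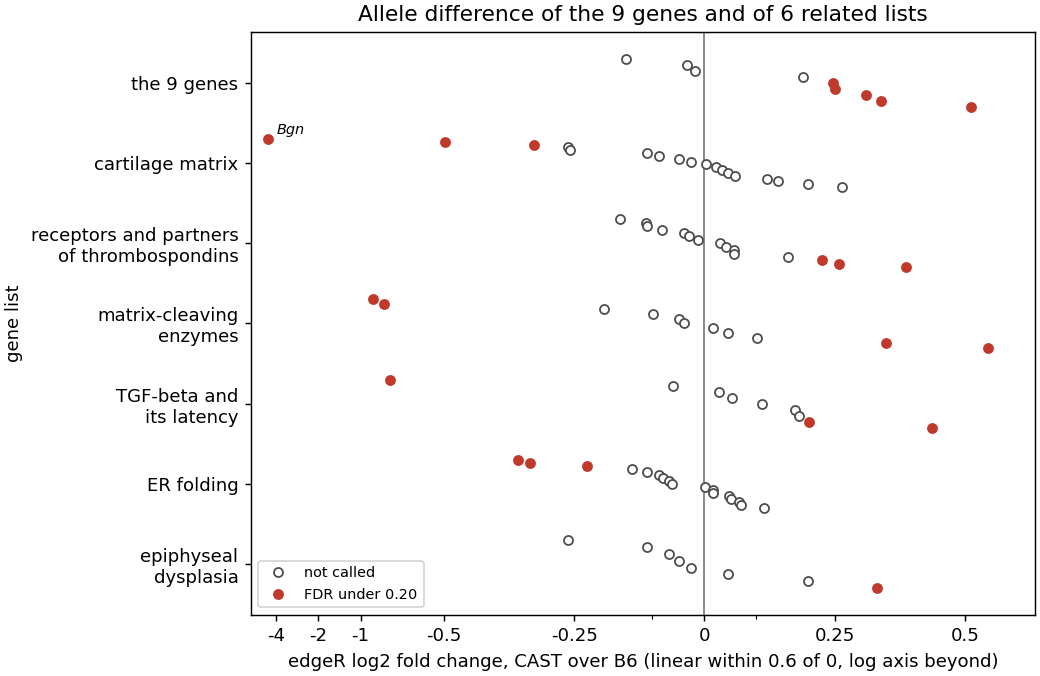
EdgeR log2 fold change of CAST over B6 for the 9 genes and for each tested gene of 6 related lists, 1 point per gene, filled where the FDR was under 0.20; the axis is linear within 0.6 of 0 and logarithmic beyond. The 5 filled points of the 9 genes all lie on the CAST side, the 3 of cartilage matrix (including the X-linked Bgn) and the 3 of ER folding on the B6 side.

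Across mice, the 9 genes varied by different amounts. The highest mouse had 1.35-fold the level of the lowest for Matn2, 1.38-fold for Thbs1, 1.74-fold for Matn4, 1.79-fold for Thbs3, 1.88-fold for Thbs4, 1.92-fold for Comp, 1.96-fold for Thbs2, 2.08-fold for Matn1 and 2.11-fold for Matn3. Mouse 4 was the highest for 7 of the 9 genes and mouse 1 the lowest for 5. Mouse 4 also had the smallest TMM factor, 0.885, and mouse 1 the largest, 1.09. On plain CPM mouse 4 was the highest for 3 genes and mouse 1 the lowest for 4. The noncoding RNAs Rn7s1, Rn7s2 and Rn7sk took 15.5% of the counts of mouse 1 and up to 23.8% of those of mouse 8.

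The order of the mice differed from gene to gene. Thbs2, before division by length, was 447 to 630 CPM in mice 1, 2 and 3 and 322 to 403 in mice 4, 5, 7 and 8. Thbs4 was 292 to 367 CPM in mice 1 to 4 and 196 to 239 in mice 5, 7 and 8. Matn3 ran nearly the other way, with 332 to 507 CPM in mice 1, 2 and 3 and 590 to 702 in mice 4, 5, 7 and 8. The labels give no batch or date that would separate these mice, and the division was drawn from the values, so it was not tested.

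**Figure D4:**
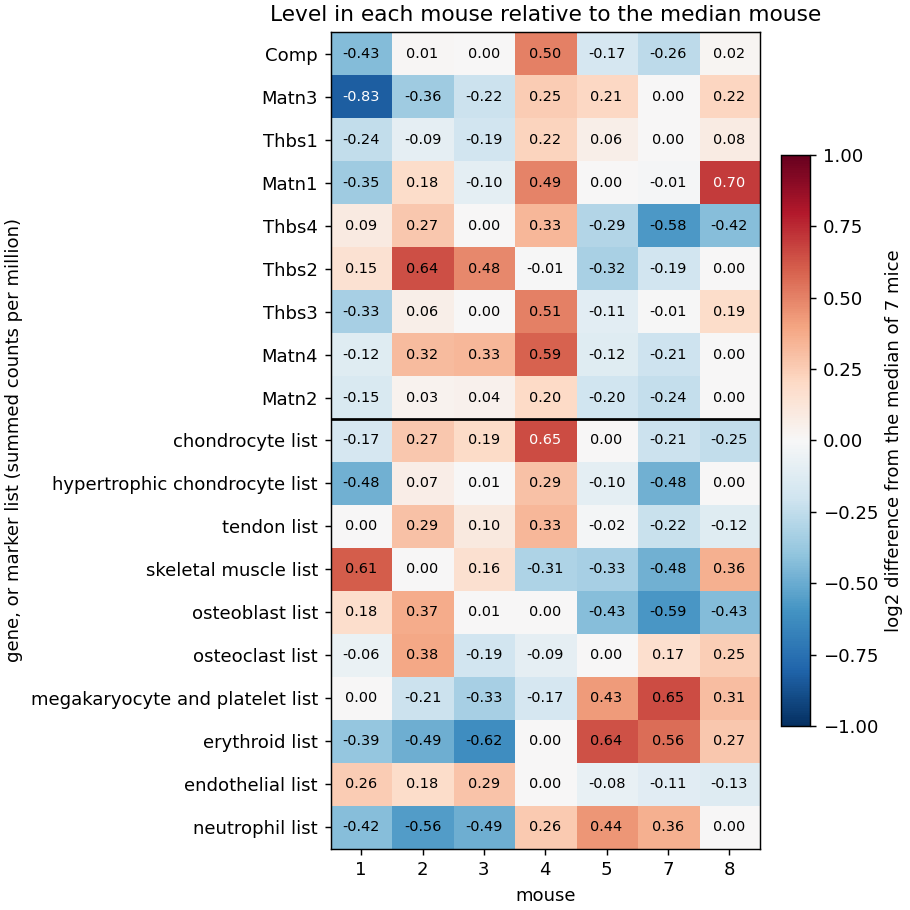
Log2 difference of each gene (upper 9 rows) and of the summed CPM of each marker list (lower 10 rows) from the median of the 7 mice, in TMM-scaled CPM. Matn1 in mouse 8 (0.70) and Thbs2 in mouse 2 (0.64) are the highest cells of the 9 genes and Matn3 in mouse 1 (-0.83) is the lowest.

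Of the 36 pairs among the 9 genes, 5 were correlated across mice at an adjusted p under 0.05, all positively, and 29 pairs had a positive r. Matn2 and Matn4 had r = 0.95 (Spearman's rho 0.96, exact permutation tests over n = 7 mice, p = 3.97e-04 and 0.00278, adjusted p = 0.0143 and 0.0333), and r was 0.88 without the 2 mice farthest from the median. Matn3 and Thbs1 had r = 0.89 (rho 0.96, exact permutation p = 0.00516 and 0.00278, adjusted p = 0.0429 and 0.0333), and r was 0.94 without 2 mice. In both pairs r stayed high with fewer mice.

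Comp was correlated with 3 of the genes. With Thbs3, a fellow pentamer, r was 0.95 (rho 0.96, exact permutation p = 0.00258 and 0.00278, adjusted p = 0.0429 and 0.0333), but it was 0.62 without the 2 mice farthest from the median. With Matn2 r was 0.89 (rho 0.75, exact permutation p = 0.00595 and 0.0663, adjusted p = 0.0429 and 0.217) and 0.79 without 2 mice, and with Matn4 0.88 (rho 0.82, exact permutation p = 0.00437 and 0.0341, adjusted p = 0.0429 and 0.175) and 0.70 without 2 mice. All 5 correlations rest on the scaling as well: with plain CPM 0 of the 36 pairs passed (5 at an unadjusted p under 0.05, exact permutation tests) and with Rn7s1, Rn7s2 and Rn7sk left out of the totals 0 passed (7 unadjusted). The 5 values of r then ran from 0.57 to 0.89 and from 0.80 to 0.92.

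Marker lists of the cell types moved with some of the genes. Of 90 pairs of a gene and a list, 2 passed an adjusted p of 0.05 and 21 had an unadjusted p under 0.05. Comp rose with the hypertrophic chondrocyte list (r = 0.92, rho 0.89, exact permutation p = 9.92e-04 and 0.0123, adjusted p = 0.0446 and 0.214, n = 7 mice), and r was 0.98 without 2 mice. With the chondrocyte list Comp had r = 0.83 (rho 0.43, exact permutation p = 0.0222 and 0.354, adjusted p = 0.161 and 0.677), and r was 0.36 without 2 mice. Thbs2 fell as the neutrophil list rose (r = -0.92, rho -1, exact permutation p = 1.98e-04 and 3.97e-04, adjusted p = 0.0179 and 0.0357, n = 7 mice), and r was -0.89 without 2 mice. The neutrophil list summed to 1213 to 1332 CPM in mice 1, 2 and 3 and to 1788 to 2423 in the other 4, and mice 1, 2 and 3 were also the 3 highest for Thbs2. No r is given within 3 or 4 mice. On plain CPM, the pair of Comp had an adjusted p of 0.0911 and that of Thbs2 0.0464 (exact permutation tests), and 4 other pairs passed. Matn2 and Matn4 had r = -0.93 and -0.96 with the megakaryocyte and platelet list (adjusted p = 0.0298 and 0.0179, exact permutation tests). Thbs1 had r = 0.94 with the neutrophil list and Thbs4 0.96 with the tendon list (adjusted p = 0.0298 and 0.0464, exact permutation tests). With Rn7s1, Rn7s2 and Rn7sk left out of the totals, a choice made after seeing the data, 0 of the 90 pairs passed (22 at an unadjusted p under 0.05, exact permutation tests), with r = 0.87 for Comp and -0.95 for Thbs2 (adjusted p = 0.0982 for both).

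Thbs4 had r = 0.94 with the tendon list and 0.91 with the osteoblast list on the TMM-scaled values (adjusted p = 0.0774 and 0.0952, exact permutation tests, rho 0.96 and 0.79), and r was 0.88 and 0.79 without the 2 farthest mice. Matn4 also had r = 0.89 with the tendon list (adjusted p = 0.0848, exact permutation test, rho 0.82) and 0.73 without 2 mice. Fmod, which is in the cartilage matrix list too, made up 85.6% to 92.2% of the tendon list. Without Fmod, a choice made after seeing the data, r with that list was 0.55 for Thbs4 (rho 0.43, exact permutation p = 0.192 and 0.354) and 0.31 for Matn4 (rho 0.18, exact permutation p = 0.544 and 0.713). Matn4 had r = 0.93 with the chondrocyte list and Matn2 had 0.88 with the hypertrophic list (adjusted p = 0.0848 for both, exact permutation tests, rho 0.75 and 0.86), with 0.76 and 0.92 without 2 mice. The osteoblast list was mostly Col1a1 and the chondrocyte list mostly Col2a1. Col10a1 had the most counts of the hypertrophic list (means of 44308 CAST and 43007 B6, against 9636 and 9512 for Alpl). Ibsp is in both the hypertrophic and the osteoblast list. For these lists r without these genes was not computed. The part of cell composition in these levels was not tested.

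**Figure D5:**
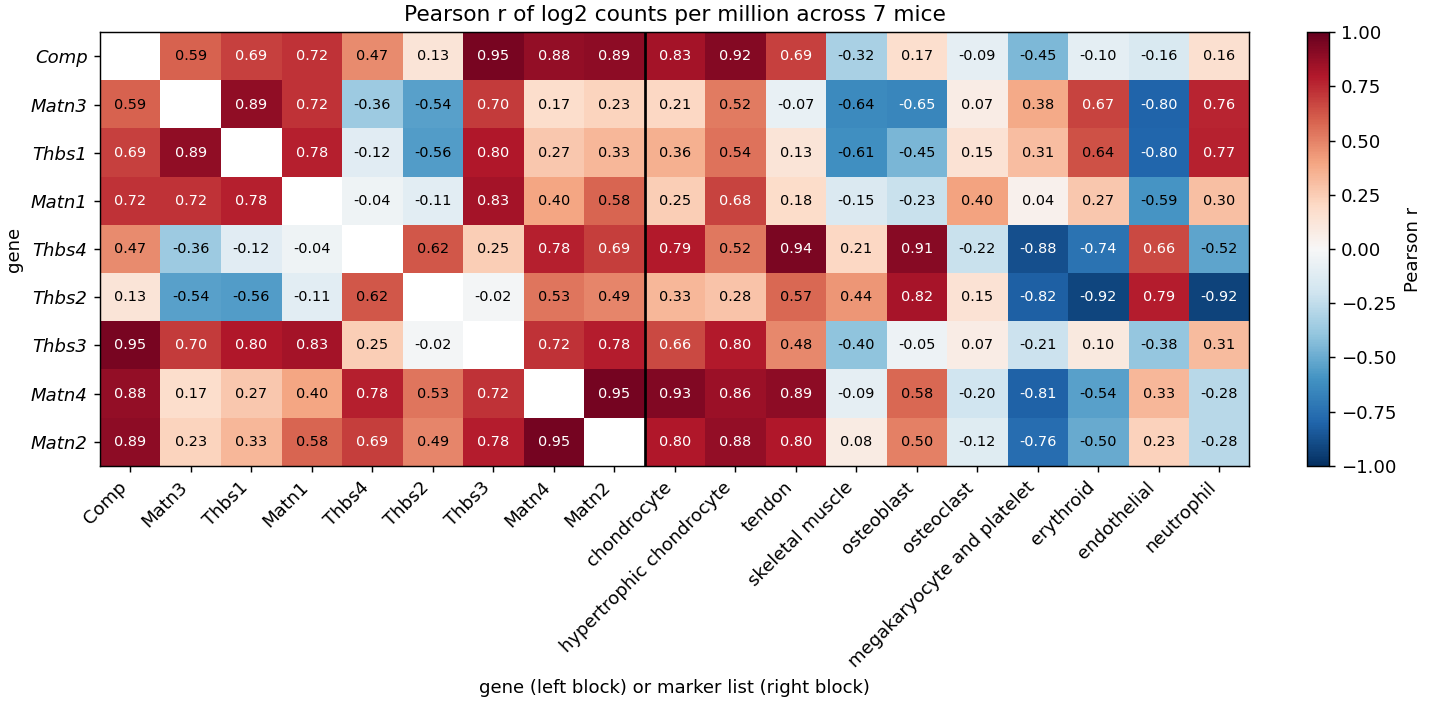
Pearson r of log2 TMM-scaled CPM across 7 mice for each pair of the 9 genes (left block) and for each gene with the summed level of 10 marker lists (right block). Comp with Thbs3 (0.95) and Matn2 with Matn4 (0.95) are the highest values of the left block, and Thbs2 with the neutrophil and the erythroid lists (both -0.92) the lowest of the right block.

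Among the 126 genes of all lists, those most like each of the 9 across the 7 mice were found by Pearson r of log2 CPM. Of 1134 pairs 177 had an unadjusted p under 0.05 and 0 passed after adjustment (lowest adjusted p = 0.0865, exact permutation tests), so the names describe these libraries only. Comp was closest to Ihh, the hedgehog signal of prehypertrophic chondrocytes (r = 0.98), and to Col9a3 (0.97). Thbs3 was closest to Col9a2 (0.99) and Col9a3 (0.97), and Matn3 to Col9a1 (0.98) and Col11a1 (0.94), which encode chains of the cartilage collagens. Matn4 was closest to Alpl (0.99) and Col11a2 (0.95), and Matn2 to Alpl (0.91) and Ihh (0.90). Matn1 was closest to Snorc (0.91), a chondrocyte proteoglycan, and Atf4 (0.84).

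Of the other thrombospondins, Thbs2 was closest to the proteases Mmp14 (r = 0.95) and Adamts5 (0.94), and Thbs4 to the endocytic receptor Lrp1 (0.97) and the osteoblast factor Sp7 (0.95). Thbs1 was closest to Col11a1 (0.92) and to Camp (0.86), a neutrophil granule gene.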

How the data were processed

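Reads from tibial growth plates of 7 F1 mice were aligned by the authors with Bowtie to the transcripts of both strains (mm10, at most 3 mismatches), and EMASE gave estimated counts per gene and allele. The deposited estimated counts carry no normalization. Reads fitting both alleles, or more than 1 gene, were divided, which leaves fractions. The unit of a count (read, read end or pair) was not determined. Totals are above the mean number of read pairs per sample that the methods state, so a fragment may be counted more than once, which would make depths and P-values look better than they are. The number of informative reads is unknown, so no counting intervals are given.

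Counts were rounded. The 20239 genes that had counts from either allele in each of the 7 mice were tested with edgeR 4.0.16 (R 4.3.3, TMM, glmFit and glmLRT, allele in the design), Benjamini-Hochberg adjusted over all of them, and called at an FDR under 0.20. Exact two-sided sign-flip tests of log2 ratios (pseudocount 0.5) and exact permutation tests of correlations ran over mice. The alleles of a mouse share a library, so mouse numbers pair them (correlation of deviations over 15111 genes 0.105 on average and -0.03 at the lowest within a mouse, and up to 0.20 between mice, so the pairing comes from the design and not from this check). No 2 mice looked like 1 library (21 pairs, chi-square divided by its degrees of freedom 14.4 to 96.4). The labels give 7 mice, each taken as 1 replicate. The fits without the replicate block and the permutation tests were tested on simulated data. The fits with the block were not.

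Gene models came from GENCODE M21 and promoters from RefSeq (GRCm38.p6). Alternatives were other tests (DESeq2 1.42.0, quasi-likelihood), the mouse as a replicate block, other scalings, filters, lengths and thresholds, and each mouse left out. Named genes were the 9, the called genes of the lists, the overlapping and called nearest coding genes (1 of them is not reported here), and the 2 list genes with the highest r for each of the 9. The 9 genes and the lists were chosen with earlier results of these data known.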

Additional observations from a re-analysis of the deposited data

Results flagged for a closer look

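The log2 CAST to B6 ratio of Thbs1 in mouse 8 was 0.14, while the other 6 mice lay between 0.22 and 0.28. The gap to the nearest mouse was 0.586 of the whole range, above Dixon's 95% critical value for 7 values. Of 18 sets of values examined (ratio and level of each of the 9 genes) this was the 1 marked, and chance alone marks about 1 set in 20. Without mouse 8 Thbs1 was still called by edgeR's likelihood-ratio test.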

How the results depend on the processing

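The directions of all 9 allele differences were the same under every alternative run. The count of called genes of the 9 was 1 at an FDR under 0.05, 4 to 5 under the other tests, scalings, filters and gene sets without the block, and 3 to 5 with 1 mouse left out, the lowest without mouse 3. With whole-number totals only, 6 of the 9 could be tested and 4 were called. The mouse as a replicate block, the pairing given by the design, added Comp and Thbs3 and changed no other call among the 9. Thbs2 lost its call in the quasi-likelihood test (FDR 0.216), with one library size per mouse (0.229), with any gene above 0 (0.201) and with autosomal genes only (0.215). The cause was not tested.

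Of the 70 list genes 17 were called, against 49 with the mouse as a replicate block, 47 with that block in the quasi-likelihood test, 11 at an FDR under 0.05, 8 among the 44 with whole-number totals and 12 to 17 with 1 mouse left out. The last but one had fewer genes to test. Of the 36 pairs of levels 32 differed, 31 with the longest transcript and 31 to 33 with 1 mouse left out. Of the 36 correlations 5 passed, and 0 with plain CPM or without Rn7s1, Rn7s2 and Rn7sk. For genes with marker lists 2 of 90 passed, 5 with plain CPM and 0 without Rn7s1, Rn7s2 and Rn7sk, the last added after seeing the data. Pseudocounts of 1 and 5 and the autosomal ratio moved no allele ratio across p of 0.05.

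Depth limits Matn4 and Matn2 most, at 657 and 838 counts in mouse 7. Counts of an allele include reads that fit both alleles, and the P-values of the block take every count as an independent read.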
